A study of Mus musculus with 50 samples.

Results

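Hypoxia targets and glycolysis enzymes form a list of 31 mouse genes, chosen by name: 12 targets of the hypoxia response, 17 genes of glucose use (11 glycolytic enzymes, 3 regulators of glycolysis and 3 transporters of glucose or lactate) and the 2 HIF alpha subunits, Hif1a and Epas1. Of these, 26 had a probe set assigned to 1 gene, out of 22180 genes with such a probe set, and all 26 passed the filter on low signal. Bnip3l, Ankrd37 and Aldoa were present only on probe sets shared with another gene, and Gpi1 and Eno1 were not named in the array annotation, so these 5 are not analysed here. RNA was measured on 50 Affymetrix arrays, 1 for each of 50 spontaneous mammary tumours, from biopsies taken before drug treatment. The mice were females of a backcross (F1Bx) in which F1 animals of the strains C57BL/6J and FVB/NJ were bred to FVB/NJ mice with the MMTV-Erbb2 transgene. Their transgene places Erbb2, a receptor tyrosine kinase, under the promoter of mouse mammary tumour virus, which is active mainly in mammary epithelium. The series title names Doxorubicin as the later treatment and the sample labels name docetaxel. All 50 tumours formed 1 group that shared the transgene and had no normal mammary tissue beside them, so the question was how the genes varied together from tumour to tumour, and whether the glycolysis enzymes followed the hypoxia targets.

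In cells with enough oxygen, prolyl hydroxylases of the EGLN family mark the HIF alpha subunits for destruction by the VHL ubiquitin ligase. When oxygen is short the subunits persist, pair with ARNT and switch on genes that carry hypoxia response elements, whose core contains the letters ACGTG or GCGTG. The targets raise glucose uptake, glycolysis and lactate export, regulate pH, and recruit vessels, and in solid tumours their RNA is often used to mark poorly oxygenated regions. HIF activity is controlled largely at the protein level, so the RNA of a subunit need not report it.

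The promoters of 5 genes are printed because the contrasts between them recur in the results: Car9 and Bnip3 among the targets, Pgk1 and Tpi1 as the enzymes that followed the targets most widely, and Ldha as an enzyme that did not. They were chosen after the values were seen. The windows are RefSeq sequences on the build GRCm38.p6, 300 bases each, 250 before and 50 after the annotated start, read 5′ to 3′ on the strand of the gene. Car9 lies at chr4:43506776-43507075 on the plus strand, Bnip3 at chr7:138909457-138909756 on the minus strand, Pgk1 at chrX:106186850-106187149 on the plus strand, Ldha at chr7:46845554-46845853 on the plus strand and Tpi1 at chr6:124814109-124814408 on the minus strand. Capitals mark the letters ACGTG and GCGTG on either strand (CACGT and CACGC when read on the other), and a CACGTG, which reads the same on both strands, counts as 2 overlapping matches.
Car9: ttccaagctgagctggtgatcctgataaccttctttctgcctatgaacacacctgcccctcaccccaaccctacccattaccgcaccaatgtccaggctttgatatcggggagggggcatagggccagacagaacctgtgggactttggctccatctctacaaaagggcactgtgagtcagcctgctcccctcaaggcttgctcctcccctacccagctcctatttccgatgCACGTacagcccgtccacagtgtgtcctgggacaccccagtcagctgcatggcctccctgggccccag
Bnip3: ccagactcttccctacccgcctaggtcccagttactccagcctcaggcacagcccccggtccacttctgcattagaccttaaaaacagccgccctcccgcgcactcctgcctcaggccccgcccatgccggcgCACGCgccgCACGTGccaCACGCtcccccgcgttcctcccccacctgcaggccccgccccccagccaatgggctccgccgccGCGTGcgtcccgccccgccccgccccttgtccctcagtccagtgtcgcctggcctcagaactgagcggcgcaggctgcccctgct
Pgk1: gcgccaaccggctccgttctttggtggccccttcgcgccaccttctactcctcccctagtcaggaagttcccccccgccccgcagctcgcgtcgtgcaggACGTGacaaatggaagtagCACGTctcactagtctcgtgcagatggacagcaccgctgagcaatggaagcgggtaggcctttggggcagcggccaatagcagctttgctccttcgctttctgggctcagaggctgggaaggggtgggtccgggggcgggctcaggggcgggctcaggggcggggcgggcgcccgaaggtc
Ldha: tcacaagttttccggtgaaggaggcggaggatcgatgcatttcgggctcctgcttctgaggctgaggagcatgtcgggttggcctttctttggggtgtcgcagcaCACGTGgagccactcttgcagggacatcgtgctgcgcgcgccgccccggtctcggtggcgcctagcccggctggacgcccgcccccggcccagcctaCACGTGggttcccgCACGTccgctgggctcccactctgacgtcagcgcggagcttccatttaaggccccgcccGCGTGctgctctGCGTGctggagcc
Tpi1: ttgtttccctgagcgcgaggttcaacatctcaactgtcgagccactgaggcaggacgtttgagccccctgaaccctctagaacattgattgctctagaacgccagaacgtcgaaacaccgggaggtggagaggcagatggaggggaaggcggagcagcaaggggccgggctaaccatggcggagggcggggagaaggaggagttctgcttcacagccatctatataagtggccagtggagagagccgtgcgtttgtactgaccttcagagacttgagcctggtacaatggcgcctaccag

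The Ldha window held 7 matches, 5 of them ACGTG, the Bnip3 window held 5, the Pgk1 window 2 and the Car9 window 1, and these letters were not in the Tpi1 window. A promoter window was given for 27 of the 31 listed genes, and 21 of these 27 held at least 1 match in the first listed window, against 43.8% of 27025 genes. ACGTG itself was found in 15 of 27, against 19.7% of all genes, and 8 of 27 held 3 or more matches, against 9.11%. By role, 8 of 10 hypoxia targets and 12 of 16 glycolysis members held a match. A match is a description of the letters and does not show a site in use.

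Most tumours carried the RNA of the labelled tissue, while mid60 and mid79 were low in Erbb2 and mid79 also in luminal markers. Erbb2 was at 9.02 log2 units in mid60, the lowest, and at 9.25 in mid79, against at least 11.1 in the 47 arrays other than these and mid100, and its median was 11.71. The array mid79, of which the mean correlation with the other arrays was 0.916, also had the lowest Krt8 and Krt18, keratins of luminal cells, at 7.33 and 8.08 (at least 9.58 and 10.08 in the 47), and the highest adipocyte and endothelial marker scores. Krt19, another luminal keratin, was low in most tumours, with a median of 4.74, and was at 4.83 in mid79. The adipocyte score of mid79, the mean of 13 genes each standardised over tumours, was 5.04 SD units, against −0.53 to 0.92 in the 47. Its endothelial score was 3.93, against −1.20 to 1.22. The array mid60 had a squamous skin score of 5.72 (−0.49 to 0.29 in the 47), and mid100 had an endothelial score of 3.25 and a skeletal muscle score of 4.72 (−0.40 to 4.24). These 3 arrays were the only ones with a mean correlation under 0.96 (median 0.978), and results that rest on them are given with and without them. In bulk tumour, fewer cells of a type and less RNA per cell cannot be told apart.

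The members differed widely between tumours. Over the 26 genes the median SD was 0.50 log2 units, against 0.23 over all 18045 tested genes, and 25 of the 26 had an SD above that of the median tested gene. From the 5th to the 95th percentile of tumours, 23 of 26 members spanned at least 2-fold, as did 23.8% of all tested genes, and 6 spanned at least 4-fold, as did 4.65%. The hypoxia targets had a median SD of 0.73, the 8 measured enzymes 0.40, the 3 transporters 0.44 and the 3 regulators 0.40. All values are log2 expression after RMA and compare tumours for 1 gene, not genes with each other.

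**Figure D1:**
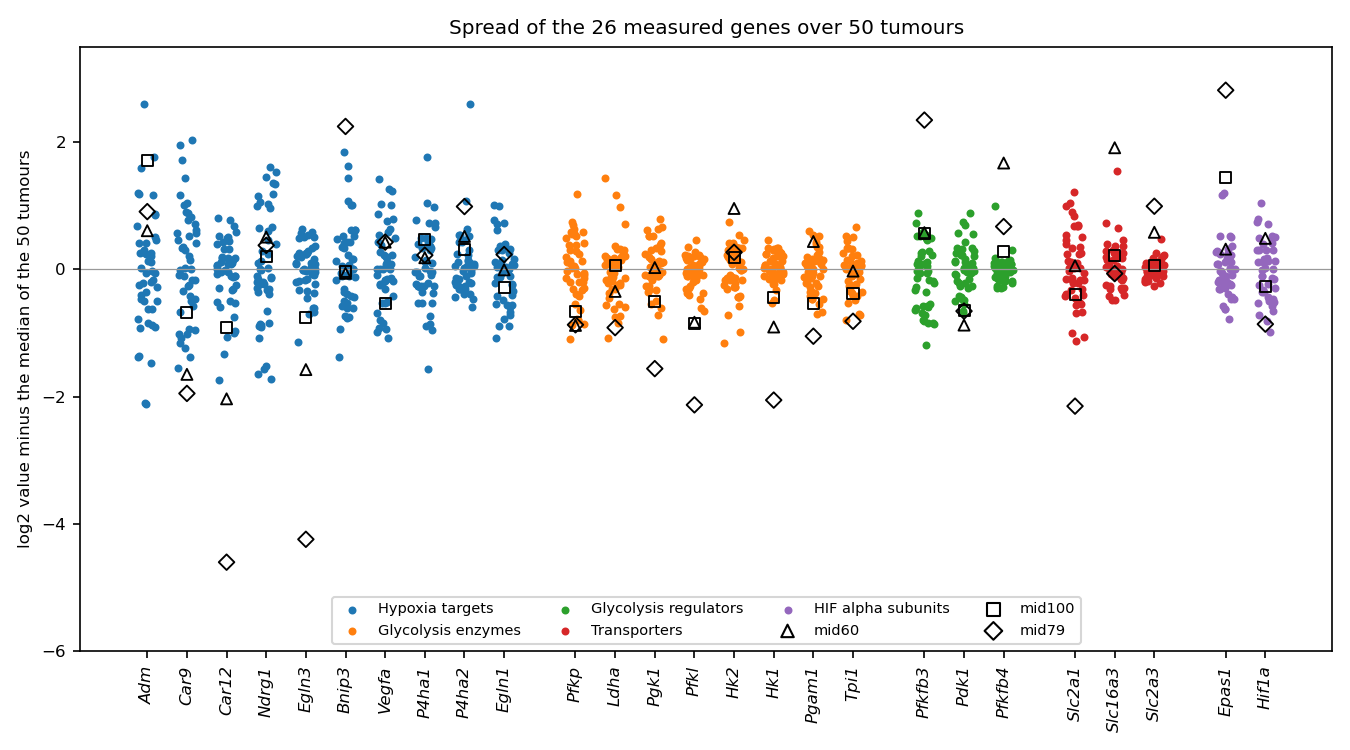
Log2 expression minus the median of the 50 tumours (vertical axis) for each of the 26 measured members (horizontal axis, grouped by role). Each tumour is drawn as a point, with mid60 (triangle), mid100 (square) and mid79 (diamond) as open markers. Before the median is subtracted, Adm spans 4.85 to 9.58 and Slc2a3 spans 4.53 to 5.78. The isolated low points of Egln3 and Car12, at log2 values of 6.96 and 5.95, are both mid79.

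Adm encodes adrenomedullin, a peptide that widens vessels. It was at 4.85 in the lowest tumour, mid87, at a median of 6.97 and at 9.58 in the highest, mid131, an SD of 0.95. Car9 encodes carbonic anhydrase IX, a membrane enzyme that regulates pH outside the cell, and was at 5.48 in mid79, a median of 7.43 and 9.47 in mid131, an SD of 0.94. Both genes were highest in the same tumour, and each spanned over 8-fold between the 5th and 95th percentiles (8.46-fold for Adm and 8.36-fold for Car9). Ndrg1, a differentiation gene widely used as a hypoxia marker, was at 7.46 in mid147, a median of 9.19 and 10.80 in mid131, a 7.74-fold span. Vegfa, the main growth factor for endothelium, was at 8.67 in mid87, a median of 9.75 and 11.17 in mid131, a 4.20-fold span. Tumour mid131 was thus the highest for 4 members and among the highest 5 for 15 of 26, and mid87 was the lowest for 7 members and among the lowest 5 for 16.

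Bnip3, a mitochondrial protein that promotes the removal of mitochondria, was at 5.86 in mid101, a median of 7.24 and 9.49 in mid79. That highest value lay in the array with the most adipocyte marker RNA, with mid131 next at 9.09. P4ha1 and P4ha2 encode the catalytic subunits of collagen prolyl 4-hydroxylase. P4ha1 was at 6.31 in mid87, a median of 7.88 and 9.64 in mid9. P4ha2 was at 4.85, 5.44 and 8.05 in the same order and with the same lowest and highest tumours. Mid9 stood out for the collagen hydroxylases but ranked only 45th of 50 for Car9 and 35th for Vegfa. Its fibroblast marker score of 2.47 was the highest of all 50. Its macrophage and neutrophil scores, 2.38 and 3.35, were the highest of the 47 arrays. The part of the cell types in its P4ha1 and P4ha2 levels was not tested.

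Egln1 and Egln3 encode 2 of the oxygen sensing hydroxylases and are themselves HIF targets. Egln1 was at 7.44 in mid87, a median of 8.52 and 9.53 in mid177, while Egln3 was at 6.96 in mid79, a median of 11.21 and 11.84 in mid120. Car12, another membrane carbonic anhydrase, was at 5.95 in mid79, a median of 10.56 and 11.37 in mid177. For Egln3 and Car12 the spread rested largely on few arrays. Without mid79, mid60 and mid100 the SD of Egln3 was 0.38, against 0.74 over all 50, and that of Car12 was 0.54, against 0.88.

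Among the genes of glucose use, the largest spread was that of Slc2a1, which encodes the glucose transporter GLUT1. It was at 7.74 in mid79, a median of 9.89 and 11.11 in mid75, a 3.99-fold span. Slc2a3 (GLUT3) was low throughout, at 4.53 in mid120, a median of 4.79 and 5.78 in mid79. Slc16a3, the lactate exporter MCT4, was at 5.68 in mid25, a median of 6.16 and 8.07 in mid60. The highest value of each of these 2 genes lay in an array that stood apart.

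The enzymes are given in the order of the pathway. Hk1, the hexokinase of most tissues, was at 6.99 in mid79, a median of 9.05 and 9.51 in mid7, and its SD of 0.39 fell to 0.22 without the 3 arrays. Hk2, the hexokinase that hypoxia induces, was at 6.66 in mid54, a median of 7.81 and 8.77 in mid60. Of the phosphofructokinases, which catalyse the committed step, Pfkl was at 8.02 in mid79, a median of 10.15 and 10.61 in mid111, and Pfkp at 8.73 in mid36, a median of 9.83 and 11.02 in mid111. Tumour mid111 was the highest for both phosphofructokinases and also for Pgk1.

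Tpi1, which interconverts the triose phosphates, was at 10.10 in mid79, a median of 10.92 and 11.59 in mid47, a 2.27-fold span. Pgk1, phosphoglycerate kinase, was at 9.38 in mid79, a median of 10.94 and 11.73 in mid111. Pgam1, phosphoglycerate mutase, was at 7.94 in mid79, a median of 8.99 and 9.60 in mid102. These 3 enzymes of the lower pathway thus had moderate spans and shared their lowest tumour. Ldha, which turns pyruvate into lactate, was at 6.73 in mid11, a median of 7.81 and 9.24 in mid105, a 3.18-fold span that exceeded those of the other enzymes.

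The regulators Pfkfb3 and Pfkfb4 set the level of fructose 2,6-bisphosphate, the activator of phosphofructokinase. Pfkfb3 was at 5.75 in mid87, a median of 6.94 and 9.29 in mid79, and Pfkfb4 at 5.12 in mid29, a median of 5.42 and 7.09 in mid60. Pdk1, a kinase that turns off pyruvate dehydrogenase, was at 7.02 in mid60, a median of 7.90 and 8.78 in mid105. Of the HIF subunits, Hif1a was at 8.60 in mid87, a median of 9.59 and 10.63 in mid102, and Epas1 (HIF-2 alpha, abundant in endothelium) at 6.87 in mid135, a median of 7.65 and 10.47 in mid79.

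Pairs of hypoxia targets had higher correlations than pairs of glycolysis members. Pearson's r was computed for all 325 pairs of members, and the p-values of pairs are from 100000 two-sided permutations, which can give no p below 1e-05, and are not adjusted over the pairs. The median r was 0.467 over the 45 pairs of hypoxia targets, 0.320 over the 140 pairs of a glycolysis member with a target, and 0.233 over the 91 pairs of glycolysis members, against 0.003 over all pairs of tested genes. An r of 0.5 or more was found in 21 of the 45, 35 of the 140 and 18 of the 91 pairs, and in 1.55% of all pairs of tested genes. Neither HIF subunit reached it with a target (0 of 20 pairs, median r 0.122). The values of Hif1a depended on the probe set. With the mean of its probe sets, r was 0.471 with Egln1, 0.428 with Vegfa, 0.402 with Bnip3 and 0.166 with Car12. With the probe set used, these were 0.245, 0.141, 0.164 and −0.050. The pairs of a glycolysis member with a target that reached 0.5 numbered 44 without the 3 arrays, at a median r of 0.346.

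**Figure D2:**
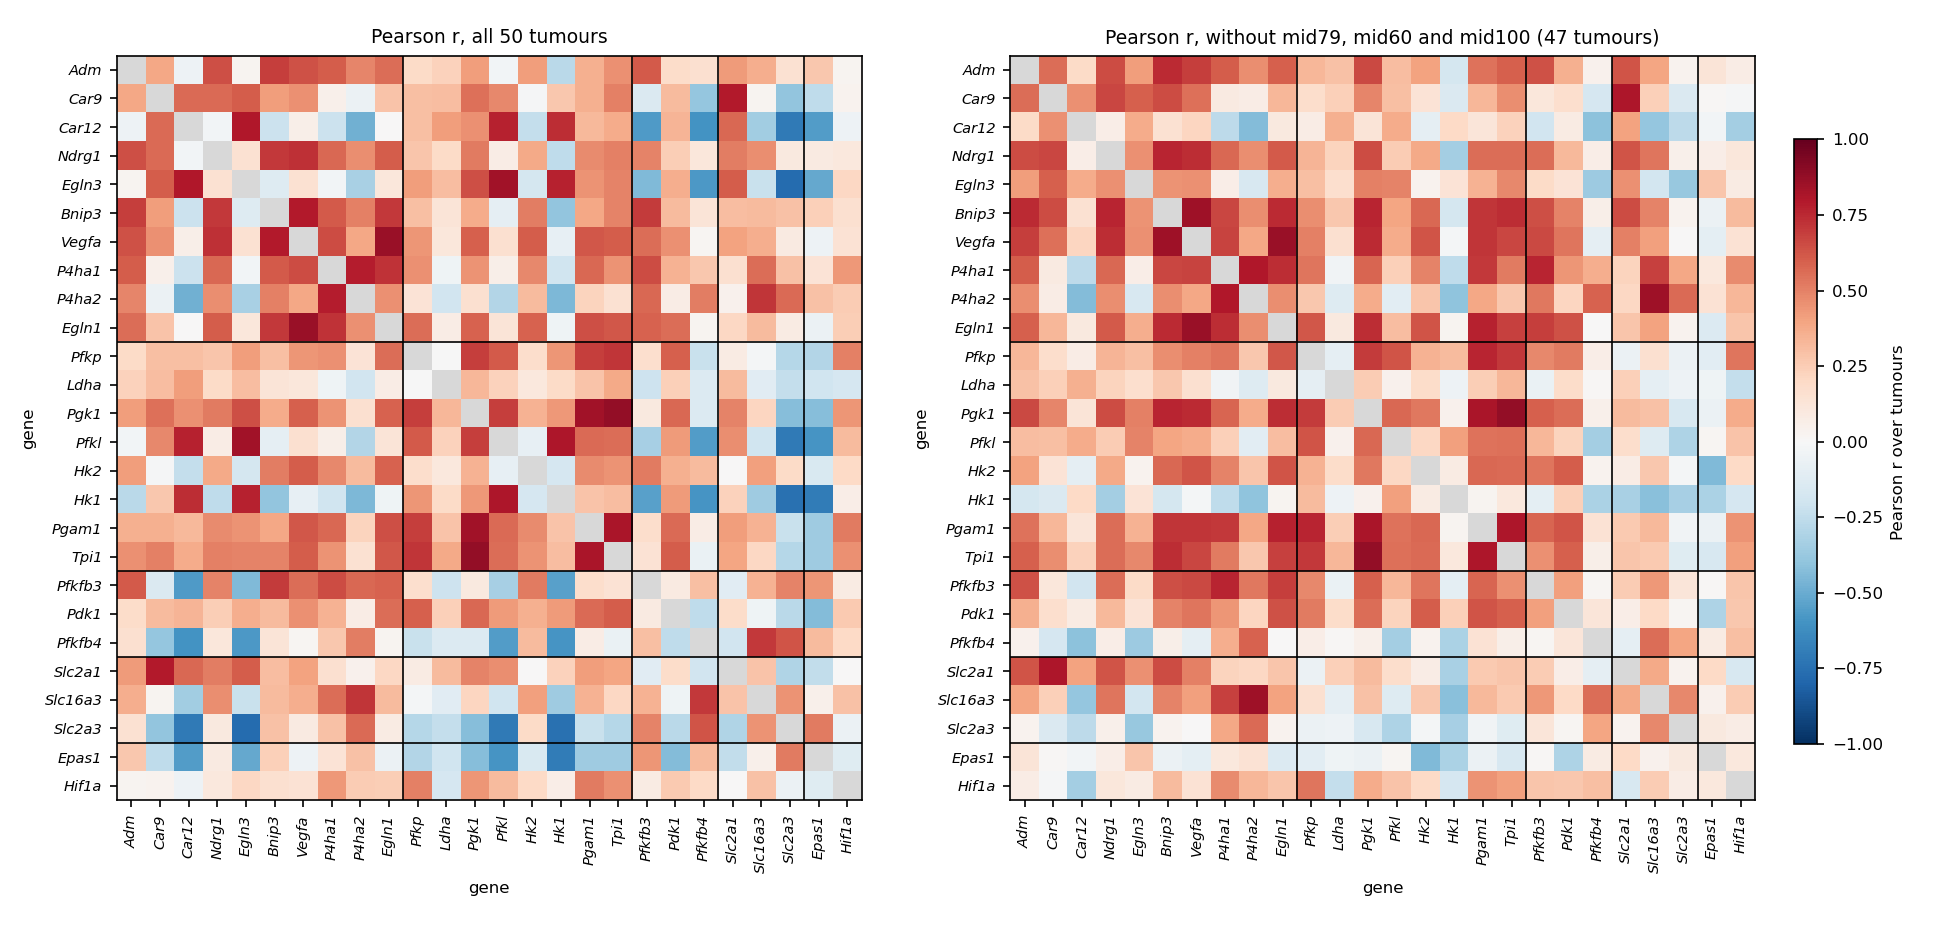
Pearson's r between each pair of the 26 measured members, ordered by role, on a colour scale centred at 0. The left panel shows all 50 tumours and the right panel the 47 without mid79, mid60 and mid100. In the left panel the block of Adm, Vegfa, Ndrg1, Egln1, Bnip3, P4ha1 and P4ha2 and the block of Tpi1, Pgk1 and Pgam1 stand out, with r of 0.878 for Tpi1 and Pgk1, while the row of Ldha stays pale.

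The closest pair was Tpi1 and Pgk1, which lie 1 step apart in the pathway, with r = 0.878 (p = 1e-05), Spearman's rho 0.892 (p = 1e-05) and r = 0.864 when the 2 tumours most distant from the median level of 1 gene of the pair, here Tpi1, were left out (from here on, the 2 farthest tumours). Pgam1 followed both, with r = 0.841 to Pgk1 and 0.820 to Tpi1 (p = 1e-05 for each, rho 0.811 and 0.783 with p = 1e-05 for each, and r = 0.786 and 0.776 without the 2 farthest tumours). Tpi1, Pgk1 and Pgam1 therefore formed a closely tied set, which was nearly as tight without the 3 arrays (r = 0.876, 0.815 and 0.810). The 2 probe sets of Pgam1 had r = 0.512 with each other. With their mean, r of Pgam1 was 0.740 with Pgk1 and 0.777 with Tpi1. Several mouse glycolytic genes have processed pseudogenes with near-identical sequence, and cross-hybridisation between copies was not tested.

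Among the targets, Vegfa and Egln1 had r = 0.863 (p = 1e-05, rho 0.845 with p = 1e-05, r = 0.831 without the 2 farthest tumours). Vegfa and Bnip3 had r = 0.793 (p = 1e-05, rho 0.785 with p = 1e-05, r = 0.758 without the 2 farthest). The 2 collagen hydroxylase subunits P4ha1 and P4ha2 had r = 0.782 (p = 1e-05, rho 0.772 with p = 1e-05, r = 0.734 without the 2 farthest). These pairs kept their relation without the 3 arrays, at r = 0.865, 0.850 and 0.799. Egln3 and Car12 were a different case, with r = 0.804 (p = 1e-05) over 50 tumours but rho 0.364 (p = 0.00959), r = 0.411 without the 2 farthest tumours and r = 0.372 without the 3 arrays.

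**Figure D3:**
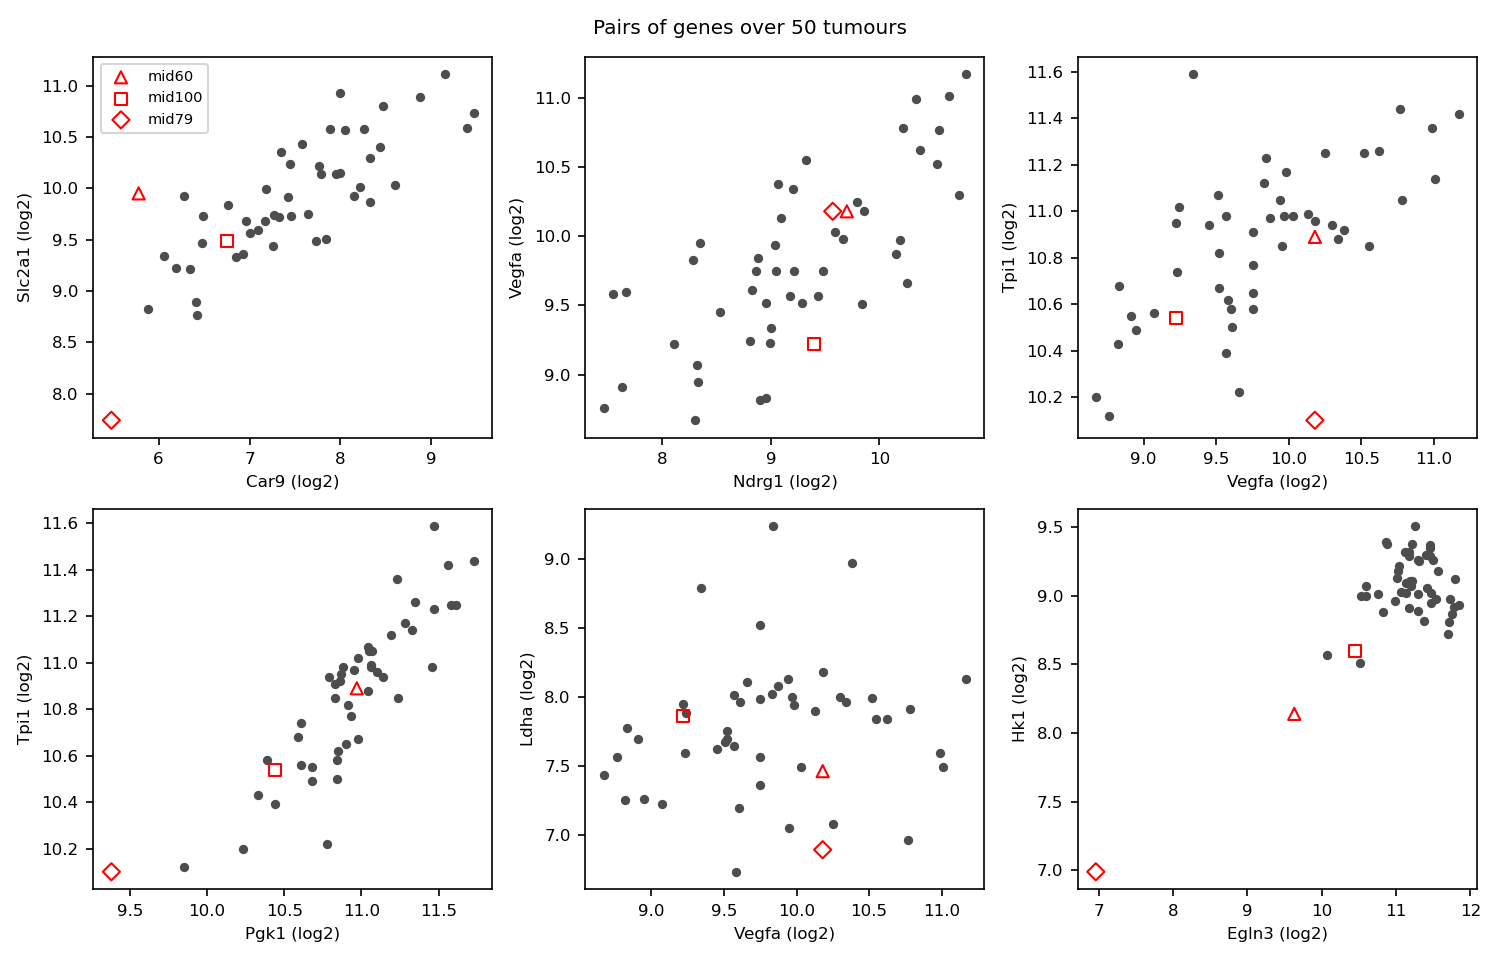
Log2 expression of 6 pairs of members, 1 point per tumour (n = 50), with mid60 (triangle), mid100 (square) and mid79 (diamond) as open red markers. Car9 with Slc2a1 (r = 0.794) and Pgk1 with Tpi1 (r = 0.878) lie along a line, Vegfa with Ldha (r = 0.115) does not, and Egln3 with Hk1 has r = 0.767 over 50 tumours and 0.139 without the marked arrays.

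To ask which glycolysis genes followed the targets, every tested gene was fitted on each of the 10 measured targets with limma, and a slope is the change in log2 expression per SD of the target. A gene is said to rise or fall with the target where its Benjamini-Hochberg adjusted p over all tested genes was under 0.05. Of the 140 slopes of 14 glycolysis members on 10 targets, 51 rose (36.4%) and 9 fell (6.43%), against a mean over the 10 fits of 5.1% and 4.24% of all tested genes. With the 3 arrays left out 53 rose (37.9%) and 0 fell, against 1.99% and 1.34% of all tested genes. At an unadjusted p under 0.05 the glycolysis members that fell there were few, with 2 each for Egln3 and Car12, 1 each for Ndrg1 and P4ha2 and 0 for the other targets. The 10 fits use the same tumours and targets that move together, so they are not separate tests of 1 relation.

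**Figure D4:**
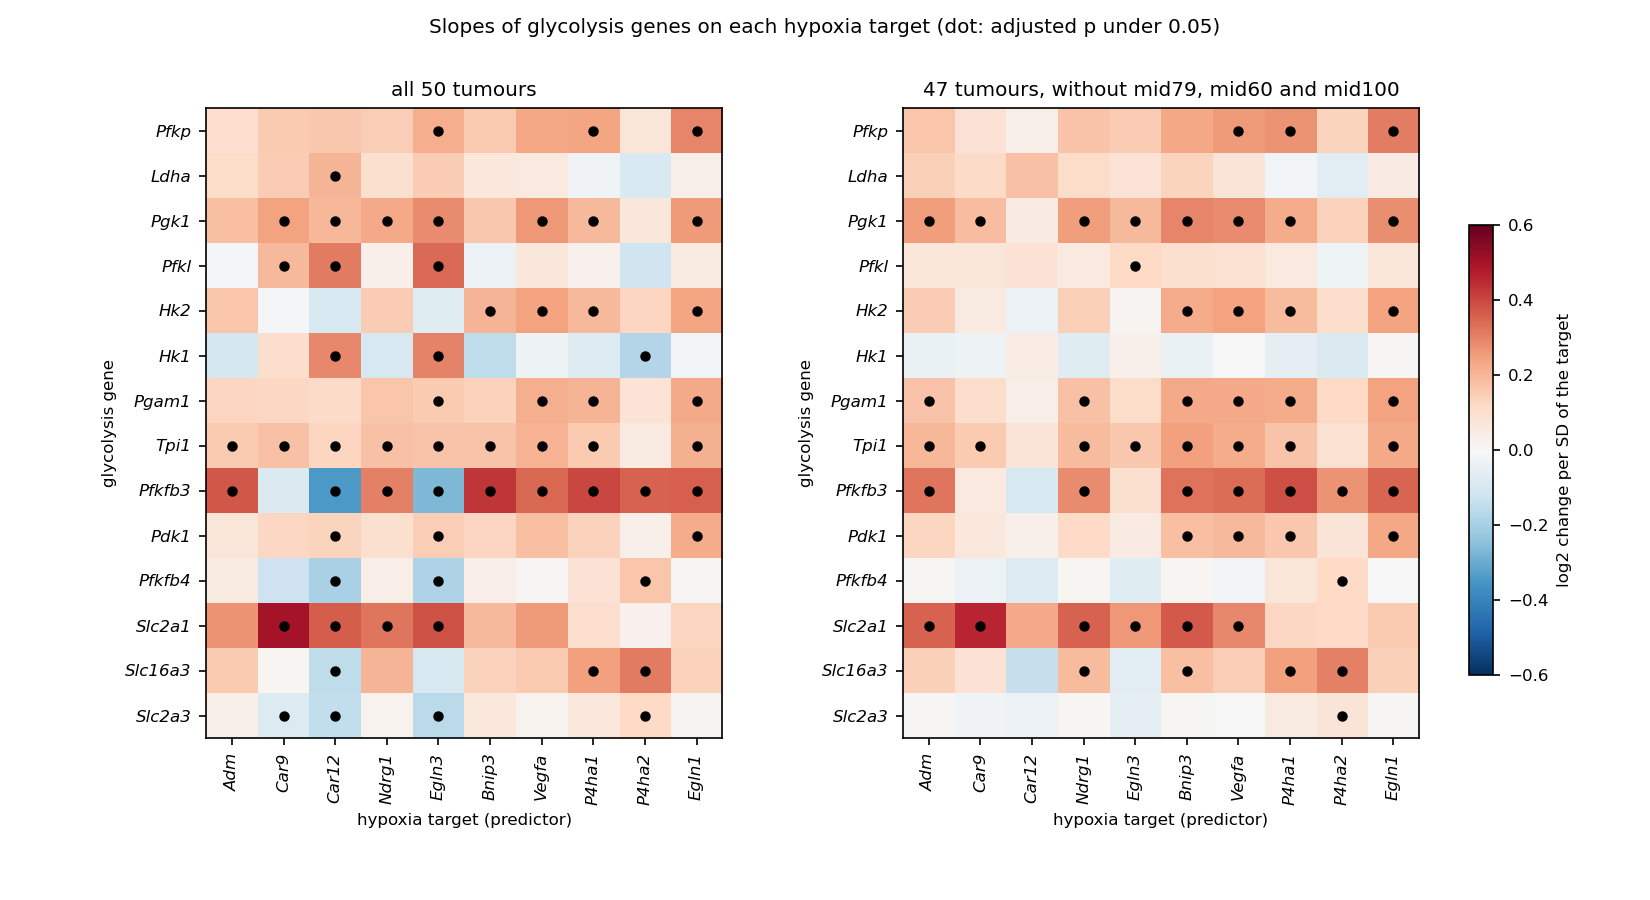
Slope in log2 units per SD of each hypoxia target (columns) for each of the 14 glycolysis members (rows), with called slopes marked. The left panel shows all 50 tumours and the right panel the 47 without mid79, mid60 and mid100. Tpi1, Pgk1 and Pfkfb3 have marked positive slopes across most columns in both panels. Ldha has 1 in the left panel, on Car12, and 0 in the right.

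Adm was followed by 6 of the 9 other targets (Bnip3, Ndrg1, Vegfa, P4ha1, Egln1 and P4ha2) and by 2 of 14 glycolysis members, while 0.599% of all tested genes rose and 0.87% fell with it. Bnip3 led all tested genes, with a slope of 0.49 (SE 0.07, limma adjusted p = 0.000226). Pfkfb3 ranked 14th with 0.37 (SE 0.07, adjusted p = 0.00158), and Tpi1 rose by 0.16 (SE 0.04, adjusted p = 0.0491). The glycolysis members that rose numbered 5 without the 3 arrays, with Slc2a1, Pgk1 and Pgam1 added, while 0.582% of all tested genes rose. Adm thus tracked the other targets widely and the glycolytic genes in part.

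Ndrg1 was followed by 7 of 9 targets, all but Car12 and Egln3, with 0.659% of tested genes rising and 0.266% falling. Vegfa led all genes with 0.45 (SE 0.06, limma adjusted p = 1.16e-05). In the pair test Ndrg1 and Vegfa had r = 0.731 (p = 1e-05), rho 0.728 (p = 1e-05) and r = 0.729 without the 2 farthest tumours. Of the glycolysis members 4 rose: Slc2a1 by 0.32 (SE 0.08, adjusted p = 0.0235), Pgk1 by 0.23 (SE 0.05, adjusted p = 0.0216), Tpi1 by 0.17 (SE 0.04, adjusted p = 0.0268) and Pfkfb3 by 0.30 (SE 0.07, adjusted p = 0.0302). The set grew to 6 without the 3 arrays, while 1.1% of tested genes rose.

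Vegfa, Egln1 and Bnip3 were added as predictors after the data had been seen. With Vegfa, 0.443% of tested genes rose, and so did 5 of 14 glycolysis members (8 without the 3 arrays, against 0.643% of tested genes). Pgam1 rose by 0.22 (SE 0.04, limma adjusted p = 0.000995), Tpi1 by 0.21 (SE 0.04, adjusted p = 0.00124), Hk2 by 0.24 (SE 0.05, adjusted p = 0.00137), Pgk1 by 0.26 (SE 0.05, adjusted p = 0.00164) and Pfkfb3 by 0.34 (SE 0.07, adjusted p = 0.00602). With Egln1, 0.388% of tested genes rose and so did 7 of 14, the same 5 genes with Pfkp (0.29) and Pdk1 (0.22). With Bnip3, 0.31% rose, and so did Pfkfb3, by 0.43 (SE 0.06, adjusted p = 1.72e-05), Hk2 and Tpi1. Of the 14, 8 rose with Bnip3 without the 3 arrays, Pgk1 among them, against 0.604% of tested genes, and 6 without mid79 alone, against 0.488%.

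The relation of Bnip3 and Pgk1 changed with the arrays used. Over 50 tumours they had r = 0.369 (p = 0.00946) but rho 0.704 (p = 1e-05), and r was 0.739 without the 2 farthest tumours and 0.763 without the 3 arrays. Left out alone, mid79 moved r to 0.752, mid60 to 0.369 and mid100 to 0.368, a comparison added after seeing the data. Mid79 had the highest Bnip3 of all tumours and the lowest Pgk1.

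The glycolysis members that followed the 2 collagen hydroxylases overlapped in part, and those of P4ha1, Slc16a3 aside, also rose with Egln1. P4ha1, with which 1.98% of tested genes rose, was followed by 7 of 14 glycolysis members: Pfkfb3 by 0.40 (SE 0.07, limma adjusted p = 0.000378), Pgam1, Slc16a3, Hk2, Pfkp, Tpi1 and Pgk1. P4ha2, with which 7.64% rose and 7.23% fell, was followed by 4: Slc16a3 by 0.31 (SE 0.04, adjusted p = 2.52e-06), Pfkfb3, Slc2a3 and Pfkfb4. Pfkfb4 and P4ha2 had r = 0.511 (permutation p = 0.0101) but rho 0.279 (permutation p = 0.0494), and r = 0.306 without the 2 farthest tumours, here mid60 and mid9. Without the 3 arrays, where mid9 remains, their r was 0.586 and rho 0.180. Hk1 fell with P4ha2, by 0.18 (SE 0.05, adjusted p = 0.0109). Slc16a3 and P4ha2 had r = 0.713 (p = 1e-05), rho 0.729 (p = 1e-05), r = 0.665 without the 2 farthest tumours and 0.850 without the 3 arrays, where Slc16a3 ranked 1st among all tested genes.

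Car9 was followed by 6 of 9 targets (Egln3, Ndrg1, Car12, Vegfa, Bnip3 and Adm) and by 4 of 14 glycolysis members, with 4.9% of tested genes rising and 5.08% falling. Slc2a1 ranked 2nd of all genes, with a slope of 0.50 (SE 0.05, limma adjusted p = 1.65e-08). The pair had r = 0.794 (p = 1e-05), rho 0.800 (p = 1e-05), r = 0.785 without the 2 farthest tumours and 0.808 without the 3 arrays. Pgk1 rose by 0.24 (SE 0.05, adjusted p = 0.00255), Tpi1 by 0.17 (SE 0.04, adjusted p = 0.00645) and Pfkl by 0.19 (SE 0.05, adjusted p = 0.0116). Slc2a3 fell, by 0.08 (SE 0.03, adjusted p = 0.0472). Slc2a1, Pgk1 and Tpi1 still rose without the 3 arrays, Pfkl did not pass (adjusted p = 0.252) and 0 fell (0 at an unadjusted p under 0.05 also), while 2.5% of tested genes rose and 1.74% fell. With 4 cell type scores as covariates, Slc2a1 was the 1 glycolysis member still called, with a slope of 0.52 (SE 0.05, adjusted p = 9.49e-09, where 2.23% of tested genes rose), and Pgk1 (adjusted p = 0.0591), Tpi1 (adjusted p = 0.0895) and Pfkl (adjusted p = 0.121) did not pass. The slopes of Ldha (0.15, adjusted p = 0.135) and Hk2 (−0.01, adjusted p = 0.969) did not pass.

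Car9 and Slc2a1 both lie on mouse chromosome 4, and so did many genes that followed Car9. Of the 885 genes that rose with it, 249 (28.1%) were on chromosome 4, against 5.95% of all tested genes, as were 8 of its 10 closest genes and 29 of its 50 closest. For the other 9 targets 1 to 6 of the 50 closest genes shared the chromosome of the target. A chromosome 4 score, chosen after seeing the data, was then added as a covariate. It was the mean standardised level of chromosome 4 genes other than the members, less the median of such means over the chromosomes of that tumour. With this covariate Slc2a1 still rose, with a slope of 0.44, and 8 glycolysis members and 6 targets rose. Of the glycolysis members Slc2a3 and Pfkfb4 fell. Of all tested genes 1732 rose (9.6%, 121 of these genes on chromosome 4) and 1798 fell (9.96%). The r with that chromosome 4 score was 0.521 for Slc2a1, 0.414 for Car9, −0.462 for Pfkp and −0.517 for Hif1a, given as a description. The part of the chromosome 4 score in the relation of Car9 and Slc2a1 was not tested beyond this fit.

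Egln3 and Car12 were followed by many members over all 50 tumours, and fewer of these slopes passed without the arrays that stand apart. With Egln3, 17.1% of tested genes rose and 13.3% fell, and 8 of 14 glycolysis members rose: Pfkl by 0.34 (SE 0.03, limma adjusted p = 5.69e-12), Hk1, Pgk1, Slc2a1, Tpi1, Pgam1, Pfkp and Pdk1. Slc2a3, Pfkfb3 and Pfkfb4 fell. Without the 3 arrays 1.15% of tested genes rose, and Pgk1, Pfkl, Tpi1 and Slc2a1 still rose while 0 fell (2 at an unadjusted p under 0.05). With Car12, 17% of tested genes rose, as did 7 of 14 members, including Hk1 by 0.29 (SE 0.04, adjusted p = 4.44e-08) and Pfkl by 0.31 (SE 0.04, adjusted p = 4.46e-09). Of the members 4 fell with Car12, as did 14.2% of tested genes. Without the 3 arrays 0 of 14 rose and 0 fell with Car12 (3 and 2 at an unadjusted p under 0.05), against 3.45% and 3.14% of tested genes. Without mid79 alone 3 rose and 3 fell, against 10.6% and 10.6% of tested genes.

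Egln3 and Hk1 had r = 0.767 (p = 4e-05) but rho 0.116 (p = 0.421), and r was 0.214 without the 2 farthest tumours. In mid79, where Egln3, Car12, Hk1 and Pfkl were all at their lowest, the adipocyte score was 5.04 and the luminal epithelial score −4.34, against −0.43 to 0.56 in the 47 arrays. The largest negative limma statistics on Egln3 were those of Bank1 (r = −0.894), Cd79a (−0.874), Cd22 (−0.875), Prr16 (−0.867) and Cd79b (−0.866). These are among genes that kept their sign without the 2 farthest tumours. Bank1, Cd79a, Cd22 and Cd79b are B cell genes, and no list of B cell markers was scored, so the part of such cells was not tested. With Egln3, 12 of 13 adipocyte, 17 of 18 endothelial and 16 of 20 fibroblast markers fell, and of 13 luminal markers 9 rose and 1 fell. In the 47 arrays 0 of 13 adipocyte, 1 of 18 endothelial and 2 of 20 fibroblast markers fell (1, 2 and 18 at an unadjusted p under 0.05), 0 of 13 luminal markers rose (1 at an unadjusted p under 0.05), and 1.62% of all tested genes fell and 1.15% rose. The part of the cell types in these slopes was not tested beyond the fit with 4 cell type scores as covariates, where Slc2a1 and Pfkl rose and Slc2a3 and Pfkfb4 fell with Egln3 (1.7% of tested genes rose and 1.19% fell), and Slc2a1 and Pfkl rose and Pfkfb4 fell with Car12 (4.29% rose and 3.18% fell).

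Gene by gene, the enzymes differed in how many targets they followed. Tpi1 rose with 9 of the 10 targets (8 without the 3 arrays), at a median r of 0.495, and Pgk1 with 7 (8), at a median r of 0.487. Pfkfb3 rose with 7 in both cases, at a median r of 0.568, and over all 50 tumours it fell with Egln3 and Car12, a call not kept without the 3 arrays. Pgam1 and Slc2a1 each rose with 4 targets (6 without the 3 arrays), and Hk2 with 4 in both cases. Pdk1, Pfkp and Pfkl each rose with 3, which became 4, 3 and 1 without the 3 arrays. Slc16a3 rose with 2 (4), Hk1 with 2 (0), and Pfkfb4 and Slc2a3 each with 1 (1). In limma fits on ranks Pfkfb4 rose with 0 targets (1 at an unadjusted p under 0.05). Over all 50 tumours Slc2a3 also fell with 3 targets, Pfkfb4 with 2, and Hk1 and Slc16a3 with 1 each, and none of these falls passed without the 3 arrays.

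Ldha, a textbook HIF target, rose with 1 target, Car12, by 0.21 (SE 0.06, limma adjusted p = 0.00912), and with 0 of 10 without the 3 arrays (2 at an unadjusted p under 0.05), where its r with Car12 was 0.357. With Vegfa it had r = 0.115 (p = 0.425), rho 0.184 (p = 0.199) and r = 0.116 without the 2 farthest tumours, although its SD of 0.49 exceeded those of Tpi1 (0.34) and Pgk1 (0.44). Its 3.18-fold span shows that it varied between tumours. The Ldha window printed above held the most matches of the 5, and the Tpi1 window, whose gene followed 9 targets, held none of these letters.

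Every tested gene was also fitted on each HIF subunit. With Hif1a 3.66% of tested genes rose and 3.89% fell, and 5 of 25 members rose: Pgam1 by 0.18 (SE 0.04, limma adjusted p = 0.00456), Pfkp by 0.26 (SE 0.06, adjusted p = 0.00627), Tpi1 by 0.16 (SE 0.04, adjusted p = 0.017), Pgk1 by 0.19 (SE 0.06, adjusted p = 0.0224) and P4ha1 by 0.25 (SE 0.07, adjusted p = 0.026). With the probe set used, P4ha1 was the 1 hypoxia target of 10 among them. No member fell with Hif1a by limma (0 of 25 at an unadjusted p under 0.05). The 2 probe sets of Hif1a had r = 0.353 with each other, and the count became 8 with their mean, where 1.05% of tested genes rose, and 10 with the probe set of larger SD, where 0.504% rose. At an unadjusted p under 0.05, 7 of 25 members rose in the main fit. With the mean 17 rose and 1 fell, and with the larger SD 19 rose and 2 fell.

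With Epas1 12.2% of tested genes rose and 14.3% fell, and 2 members rose (Slc2a3 and Pfkfb3) and 8 fell (Car12, Egln3, Hk1, Pfkl, Tpi1, Pgk1, Pgam1 and Pdk1). When the 3 arrays or mid79 alone were left out, 0 rose and 0 fell. At an unadjusted p under 0.05, 1 rose and 3 fell without the 3 arrays, and 0 and 3 without mid79. Of all tested genes 0.815% rose and 0.249% fell without the 3 arrays, and 5.8% and 2.64% without mid79 alone. Epas1 was highest in mid79, and its r with the endothelial score was 0.796 over 50 tumours and 0.510 without the 3 arrays.

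Proliferation and endothelial scores were fitted in the same way. With the proliferation score 11% of tested genes rose and 7.95% fell. Of 26 members 9 rose (Car12, Egln3, Hk1, Pfkp, Pfkl, Tpi1, Pgk1, Pgam1 and Pdk1) and 2 fell (Slc2a3 and Epas1). Without the 3 arrays Hk1 (r = 0.549, limma adjusted p = 0.00299) and Pdk1 (r = 0.414, adjusted p = 0.0482) rose and 0 fell (1 at an unadjusted p under 0.05), against 4.56% and 1.99% of tested genes. Mid79 had the lowest proliferation score, at −3.41, and without it alone 1 of 26 members rose, against 4.14% of all tested genes.

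With the endothelial score 14.5% of tested genes rose and 20.5% fell. Of the members 7 rose (Adm, P4ha1, P4ha2, Slc2a3, Pfkfb3, Pfkfb4 and Epas1) and 5 fell (Car12, Egln3, Hk1, Pfkl and Pgk1). In the 47 arrays 5 rose (P4ha1, P4ha2, Slc2a3, Slc16a3 and Epas1) and 0 fell (0 at an unadjusted p under 0.05), against 6.16% and 2.11% of tested genes. Vegfa, the endothelial growth factor, was not among the genes that rose in either case.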

How the data were processed

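RNA from 50 tumours was hybridised to Affymetrix arrays. Per the labels' protocols, 6 ug of Trizol-extracted RNA were turned into biotinylated cRNA. The authors deposited log2 values from RMA, per the submitters' processing notes, which also list the build mm8 and say nothing of its role. The sources used here do not state the RMA version. Quantile normalization, a step of RMA, hides any shift common to most genes.

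Of 34472 probe sets, the platform annotation assigns 1 gene to 23521, several to 1814, and names none for 9137. The gene table matched 23328 Entrez identifiers and not 193. Each of the 22180 genes was read from its probe set with the highest mean, and genes with a mean under 4.09, the 25th percentile of probe sets, were left out, which left 18045. All samples formed 1 group with no replicate numbers, and no labels mark a batch. The tumours are separate, and their number limits the precision. Regressions on standardised predictors used limma 3.58.1 (lmFit, eBayes with trend, Benjamini-Hochberg over all tested genes, called under 0.05) in R 4.3.3, and pairs used permutation tests in Python 3.11.15 with numpy 2.4.6, scipy 1.17.1 and pandas 2.3.3. On simulated data for the Car9 fit (18045 genes), 90 of 100 genes with a slope of 0.2 and 98 of 100 with −0.3 were recovered, with 11 false calls.

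The members, gene lists and tests were chosen with earlier results of these data known. Named were all members, the 5 genes with the largest positive and negative statistics in a fit among those that kept their sign without the 2 farthest tumours, the 3 leading genes of other lists in the Car9 fit, and the 5 genes most like Car9, Adm, Ndrg1 and Egln3, of which the text gives the genes a result turns on. Fits on Car12, Vegfa, Egln1, Bnip3, P4ha1 and P4ha2, the chromosome 4 covariate and single arrays left out were added after seeing the data. Promoter windows came from a RefSeq table on GRCm38.p6.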

Additional observations from a re-analysis of the deposited data

How the results depend on the processing

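Settings changed 1 choice at a time, and the cause of each change was not tested. Of 82 member slopes called on the 8 planned predictors, 67 kept their sign under every setting run and 15 reversed under at least 1. Of the 82, 79 were still called with the probe set of the largest SD, 77 with the mean of probe sets, 77 with no filter, 72 with a filter at the 50th percentile, 58 with array weights, 55 with a proliferation covariate, 42 without the 3 arrays, 38 with ranks, 38 without the 2 tumours that lay farthest from the median of the predictor and 35 with cell type covariates. The median SD of the members and the median r between glycolysis members and targets moved little (r 0.320, against 0.317 with Spearman's rho and 0.346 without the 3 arrays).

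Counts of glycolysis members that rose moved over 1.5 times as follows. With Adm (2) they were 6 with array weights, 5 with cell type covariates, 4 with ranks, 5 without the 3 arrays and 1 with no filter. Of all tested genes 1.04%, 0.393%, 1.11%, 0.582% and 0.379% rose in that order, against 0.599% in the main fit. With Car9 (4) there was 1 with cell type covariates and 8 with the chromosome 4 covariate. There 2.23% and 9.6% of all tested genes rose, against 4.9% in the main fit. With Egln3 (8) there were 2 with cell type covariates and 4 each with the proliferation covariate, ranks, the 2 farthest tumours left out and the 3 arrays left out. Of all tested genes 1.7%, 12.2%, 1.32%, 2.6% and 1.15% rose in that order, against 17.1% in the main fit. With Car12 (7) there were 2 with cell type covariates, 2 with ranks and 0 without the 3 arrays. There 4.29%, 5.29% and 3.45% of all tested genes rose, against 17% in the main fit. With Vegfa (5) and Bnip3 (3) there were 8 each with cell type covariates and without the 3 arrays, and with P4ha2 (4) there were 2 with cell type covariates. Of all tested genes 0.743% and 0.643% rose with Vegfa under these settings, and 0.549% and 0.604% with Bnip3. With P4ha2 0.77% rose under cell type covariates, against 7.64% in the main fit. Counts with Ndrg1, Egln1 and P4ha1 stayed within 1.5 times under every setting run.

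Members that rose with Hif1a (5) numbered 8 with the mean of probe sets, 10 with the largest SD, 3 with ranks and 2 without the 2 farthest tumours. Of all tested genes 1.05%, 0.504%, 4.26% and 3.77% rose in that order, against 3.66% in the main fit. Those that rose with Epas1 (2) numbered 1 with the 50th percentile filter and 0 with array weights, cell type covariates, the proliferation covariate, ranks and either set of tumours left out. Those that fell with Epas1 (8) numbered 1 with array weights, 3 with the proliferation covariate and 0 with cell type covariates, ranks and either set left out. Of all tested genes 4.34% rose and 1.32% fell with array weights, and 8.4% and 6.33% with the proliferation covariate. With cell type covariates 0.0443% rose and 0.00554% fell, and with ranks 4.28% and 1.93%. Members that rose with the proliferation score (9) numbered 3 with array weights, 0 with cell type covariates, 1 with ranks, 1 without the 2 farthest tumours and 2 without the 3 arrays, and those that fell (2) numbered 0 under all 5. Of all tested genes 5.49%, 2.53%, 4.71%, 3.72% and 4.56% rose in that order, and 2.27%, 1.11%, 1.24%, 1.32% and 1.99% fell. With the endothelial score, 0 of the 7 rose with cell type covariates, and 0 of the 5 fell with cell type covariates, ranks or either set left out. Under cell type covariates 1.05% of all tested genes rose and 0.222% fell with that score. With ranks 6.14% fell, without the 2 farthest tumours 3.71% and without the 3 arrays 2.11%. At an unadjusted p under 0.05, limma gave 3 that rose with the proliferation score and 4 with the endothelial score under cell type covariates.

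With each of mid79, mid60 and mid100 left out alone, the counts ranged from 1 to 4 for Adm, 3 to 5 for Car9, 5 to 6 for Ndrg1, 6 to 8 for Egln3, 3 to 7 for Car12, 5 to 7 for Vegfa, 3 to 6 for Bnip3, 7 to 7 for Egln1 and P4ha1 and 4 to 4 for P4ha2. For members they ranged from 4 to 5 that rose and 0 to 0 that fell with Hif1a, 0 to 3 and 0 to 8 with Epas1, 1 to 10 and 0 to 3 with the proliferation score, and 7 to 7 and 2 to 5 with the endothelial score. The shares of all tested genes that rose also moved, and most with mid79 left out. Without mid79 they were 7.6% with Egln3, 10.6% with Car12, 5.8% with Epas1 and 4.14% with the proliferation score. Without mid60 these were 15.2%, 14.8%, 12.5% and 12.1%.

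The slopes that changed sign were these. Values with ranks are slopes between standardised ranks, equal to Spearman's rho, and are not in log2 units like the others. On Egln3, Bnip3, not called over 50 tumours and so not among the 15, was called at 0.299 without the 3 arrays and 0.289 without the 2 farthest tumours. Pfkfb3 was at 0.088 with ranks, 0.176 with cell type covariates, 0.096 without the 3 arrays and 0.064 without the 2 farthest, and Epas1 at 0.061, 0.241, 0.113 and 0.049 in the same order. On Epas1, Egln3 was at 0.061, 0.338, 0.107 and 0.079 in that order, Pfkl at 0.027 with cell type covariates and 0.005 without the 3 arrays, and with cell type covariates Car12 was at 0.127, Slc2a3 at −0.044 and Pfkfb3 at −0.196. On the proliferation score with cell type covariates, Car12 was at −0.014, Egln3 at −0.033 and Pfkl at −0.007. On the endothelial score Pgk1 was at 0.035 with ranks, 0.197 with cell type covariates, 0.05 without the 3 arrays and 0.048 without the 2 farthest, and with cell type covariates Car12 was at 0.065, Egln3 at 0.22, Hk1 at 0.02 and Pfkfb4 at −0.016.

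Over all tested genes, the counts that rose and fell moved by more than 1.5 times under some settings. Those that rose ranged from 63 to 281 with Adm (108), 402 to 1732 with Car9 (885), 102 to 427 with Ndrg1 (119), 208 to 3080 with Egln3 (3080), 91 to 1053 with Hif1a (661), 8 to 2340 with Epas1 (2199), 455 to 2178 with the proliferation score (1976) and 190 to 2806 with the endothelial score (2605). Those that fell ranged from 9 to 359 (157), 273 to 1798 (917), 39 to 352 (48), 162 to 2595 (2391), 28 to 1263 (702), 1 to 2663 (2573), 200 to 1611 (1432) and 40 to 3700 (3700) in the same order. The highest counts with Car9 came from the chromosome 4 covariate, which was run for Car9 alone.

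No paired analysis was possible because all tumours formed 1 group and the labels give no replicate numbers. RMA values carry no depth, low signals such as that of Slc2a3 are compressed, and which cells the RNA came from was not measured.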

Other observations

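Genes outside the list that were closest to the targets included further hypoxia genes. Those with the highest r to Ndrg1 were Vegfa (0.731), Ppme1 (0.714), Ak4 (0.712), Gys1 (0.710) and Bnip3 (0.708). Ak4 encodes a mitochondrial adenylate kinase and Gys1 the glycogen synthase of muscle and most other tissues. The closest genes to Adm were Bnip3 (0.689), Ppme1 (0.687), Ddit4 (0.675), C9orf72 (0.660) and Rlf (0.656), of which Ddit4 encodes an inhibitor of mTORC1. The closest to Car9 were 2610528A11Rik (0.826), Slc2a1 (0.794), Grhpr (0.786), Fbxo10 (0.761) and Orc3 (0.698), of which the last 4 lie on chromosome 4. The closest to Egln3 were Fhdc1 (0.878), Sptb (0.868), Cdcp1 (0.856), Tmem184a (0.854) and Ank3 (0.847). Neither Egln3 nor Car9 shared any of its 5 with the other 3 targets, while Adm and Ndrg1 shared Bnip3 and Ppme1.

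Of 35 other measured hypoxia targets, 18 rose with Car9 (4.9% of all tested genes did), 15 with Ndrg1 (0.659%), 8 with Adm (0.599%) and 19 with Egln3 (17.1%). With Egln3 3 of the 35 fell, against 13.3% of all tested genes. In the 47 arrays 12 rose with Car9 (2.5% of all tested genes did), 16 with Ndrg1 (1.1%), 11 with Adm (0.582%) and 8 with Egln3 (1.15%). The median r with Car9 was 0.387 over these 35 genes, against 0.0145 over all tested genes. Ak4, which like Car9 lies on chromosome 4, rose with Car9 by 0.47 (SE 0.07, limma adjusted p = 7.65e-05) and with Ndrg1 by 0.50 (SE 0.07, adjusted p = 2.05e-05). Of 25 other glycolytic genes, 3 rose with Car9, against 4.9% of all tested genes, namely Eno2 by 0.23 (SE 0.07, adjusted p = 0.0256), Gapdh by 0.08 (SE 0.03, adjusted p = 0.0297) and Pkm by 0.12 (SE 0.04, adjusted p = 0.0365). Eno2, the enolase named for neurons, was the 1 gene of that list that rose with Ndrg1, by 0.38 (SE 0.05, adjusted p = 2.05e-05), and with Adm, by 0.34 (SE 0.06, adjusted p = 0.000541).

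Genes of mitochondrial oxidation were counted in the same way, beside the 5.08% of all tested genes that fell with Car9. Of 20 genes of pyruvate dehydrogenase and the citric acid cycle, 2 fell (Ogdh and Sucla2), and of 21 genes of oxidative phosphorylation 2 fell (Ndufs1 and Ndufa4). Ogdh, a subunit of the oxoglutarate dehydrogenase complex, fell by 0.10 (SE 0.03, limma adjusted p = 0.0118), while its slope on Ndrg1 was −0.05 (adjusted p = 0.533). Of 13 genes of oxygen sensing, 2 rose with Car9, against 4.9% of all tested genes. These were Arnt, the partner of the HIF alpha subunits, and Hif1an, the asparaginyl hydroxylase that restrains them. Of cell type markers, 7 of 20 fibroblast, 5 of 13 adipocyte, 4 of 16 macrophage, 3 of 8 neutrophil and 2 of 18 endothelial genes fell with Car9, against 5.08% of all tested genes. Without the 3 arrays 0 of them did by limma (2 fibroblast, 2 adipocyte, 1 macrophage, 2 neutrophil and 2 endothelial genes at an unadjusted p under 0.05), against 1.74% of all tested genes.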
